A study of Mus musculus with 12 samples.

Results

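The Pramel genes of the mouse are relatives of human PRAME and encode proteins built of leucine-rich repeats, a fold that binds other proteins. The family has spread by duplication, so that many copies lie in tandem and resemble each other closely, and most members are known from the germ line or the early embryo. Pramel6 and Pramel7 are known from the inner cell mass and from mouse embryonic stem cells. Pramel7 there is a target of LIF and STAT3 signalling and, as a receptor of the Cullin 2 ubiquitin ligase, leads to the degradation of UHRF1, a factor that maintains DNA methylation. These roles are background knowledge and were not measured here.

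Members were all probe sets whose array annotation lists a symbol that begins with Pramel, either alone or together with other copies. This gave 67 of 28939 tested probe sets, in a table of 35556 that also holds 6617 taken to be controls. The members list 47 of the 21335 gene symbols on the tested probe sets. Of the 67 members, 14 list 1 gene and 53 list several, in 9 different combinations of genes. Of the 47 symbols, 29 begin with Pramel. Because the copies are alike, 26 members share all 12 values with at least 1 other member, and the 67 hold 53 distinct sets of values. By the chromosomes listed, 2 members lie on chromosome 2, 20 on chromosome 4, 37 on chromosome 5 and 5 on the X chromosome, while 3 list genes of both chromosomes 4 and 12. Values of a shared probe set cannot be assigned to 1 of the copies it lists. Members were selected on the symbol, and no measured value entered that rule. The family itself was put forward with the values of these arrays known, so the counts, calls and adjusted p-values below describe it and support nothing further.

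The samples were 4 mouse induced pluripotent stem (iPS) cell lines, embryonic stem cell-like cells obtained here from embryonic fibroblasts of strain C57BL/6J with 3 factors, which the labels do not name. LiPS-45 and LiPS-57 had competence for tetraploid embryo complementation, an assay in which the fetus is formed by the stem cells put into a tetraploid host embryo, and LiPS-47 and LiPS-50 lacked it. Each line was grown in embryonic stem cell medium as 3 biological repeats with 1 array each, which gives 12 arrays, and is a single cell line. The comparison of interest in the series was between lines with and without this competence.

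Values are log2(intensity + 1), and a fold is the ratio of these shifted intensities, which understates the change of a dim probe set. A call means an adjusted p under 0.05 in limma over all 28939 tested probe sets. The number of arrays limits the precision, and p-values rest on how the cultures within a line vary. In bulk RNA, a smaller share of cells with a transcript and less of it per cell cannot be told apart. Within a line the arrays correlated at 0.9957 to 0.9974. All 12 genes of the list that marks pluripotent cells were measured in every line, at mean levels of at least 7.94 for LiPS-45, 8.09 for LiPS-57, 7.92 for LiPS-47 and 8.02 for LiPS-50, the lowest being Zfp42 in each line.

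Most members were dim. The mean over the 12 arrays was below the 40th percentile of all tested probe sets, a level of 5.21, in 65 members and above it in 2, Pramel12 and Pramel13. In LiPS-50 alone the line mean reached 5.21 in 19 members, which hold 13 distinct sets of values. No detection call was used, so a low value is given as a value and not as absence.

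Promoter windows from RefSeq (GRCm38.p6, 250 bases before to 50 after the annotated start, on the strand of the gene) are shown for members that differed most between lines, and for Pramel1, which did not pass the test in any comparison, as a contrast. Capitals mark CG dinucleotides, the sites at which mammalian DNA is methylated. Among the windows of single-gene members that were not called, that of Pramel1 has the most CG and does not stand for the rest.
Pramel6, chr2:87506315-87506614, plus strand: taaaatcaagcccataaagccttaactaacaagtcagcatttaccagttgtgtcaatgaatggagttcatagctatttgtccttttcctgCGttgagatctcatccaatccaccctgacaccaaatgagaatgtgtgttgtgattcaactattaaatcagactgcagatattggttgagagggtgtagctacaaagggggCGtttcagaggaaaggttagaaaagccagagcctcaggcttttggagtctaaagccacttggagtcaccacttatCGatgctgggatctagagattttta
Pramel7, chr2:87492369-87492668, minus strand: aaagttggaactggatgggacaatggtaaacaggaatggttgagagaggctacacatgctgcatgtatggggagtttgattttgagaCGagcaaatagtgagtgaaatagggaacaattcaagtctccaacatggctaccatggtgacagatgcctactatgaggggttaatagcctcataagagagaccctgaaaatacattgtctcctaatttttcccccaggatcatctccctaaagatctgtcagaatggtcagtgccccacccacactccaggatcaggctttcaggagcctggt
Pramel19, chr4:101940157-101940456, plus strand: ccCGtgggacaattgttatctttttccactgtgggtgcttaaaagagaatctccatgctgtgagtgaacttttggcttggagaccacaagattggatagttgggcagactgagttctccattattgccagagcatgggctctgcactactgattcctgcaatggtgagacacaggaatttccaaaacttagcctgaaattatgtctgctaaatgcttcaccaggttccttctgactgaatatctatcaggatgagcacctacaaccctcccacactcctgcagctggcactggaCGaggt
Pramel20, chr4:143567217-143567516, plus strand: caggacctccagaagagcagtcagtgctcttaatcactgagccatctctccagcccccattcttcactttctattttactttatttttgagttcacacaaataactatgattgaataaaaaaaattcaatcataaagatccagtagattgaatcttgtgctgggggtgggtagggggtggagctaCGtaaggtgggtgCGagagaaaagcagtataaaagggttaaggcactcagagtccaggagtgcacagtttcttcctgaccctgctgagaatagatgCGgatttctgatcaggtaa
Pramel13, chr4:144408415-144408714, minus strand: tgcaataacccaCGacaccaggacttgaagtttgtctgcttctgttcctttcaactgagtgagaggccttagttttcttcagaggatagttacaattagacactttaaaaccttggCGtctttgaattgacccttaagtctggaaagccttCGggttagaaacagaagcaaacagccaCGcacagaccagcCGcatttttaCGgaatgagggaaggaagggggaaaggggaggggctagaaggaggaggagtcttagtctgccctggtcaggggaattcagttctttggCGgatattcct
Pramel37, chr5:94070496-94070795, minus strand: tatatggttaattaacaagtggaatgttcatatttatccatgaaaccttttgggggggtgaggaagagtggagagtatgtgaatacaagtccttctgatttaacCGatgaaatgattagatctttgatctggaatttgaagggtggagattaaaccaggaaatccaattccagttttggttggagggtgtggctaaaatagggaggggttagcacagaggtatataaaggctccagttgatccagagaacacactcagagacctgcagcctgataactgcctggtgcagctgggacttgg
Pramel1, chr4:143394191-143394490, plus strand: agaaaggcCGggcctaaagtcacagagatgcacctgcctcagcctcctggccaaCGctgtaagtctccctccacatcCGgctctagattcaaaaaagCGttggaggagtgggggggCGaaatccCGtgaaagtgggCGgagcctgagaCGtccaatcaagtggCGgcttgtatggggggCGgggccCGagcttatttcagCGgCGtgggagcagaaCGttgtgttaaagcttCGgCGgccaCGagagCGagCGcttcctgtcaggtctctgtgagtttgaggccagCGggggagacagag

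Most windows of the members were poor in CG. Of the 47 listed genes, 36 have a window in the table, and 29 of these windows hold 3 CG or fewer, against 31.4% of all 32851 windows, whose median is 7 CG. The other 7 are those of Pramel1 with 20 CG, Pramel13 with 7 and the 5 genes of the X-linked Pramel3 group with 9 or 10. Among single-gene members, the 5 called against LiPS-50 have 1 to 7 CG, with 4 of 5 windows at 3 or fewer. The 9 that were not called have 8 windows with 0 to 20 CG, of which 7 are at 3 or fewer, and the highest count is that of Pramel1. The letters TTCNNNGAA, the form of a STAT3 site, which reads the same on both strands, occur in 0 of the 36 windows and in 8.3% of all windows. That says only that these letters are not in the windows shown.

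Some copies that share probe sets have near-identical windows, and others do not. The windows of Pramel37 and Pramel50 are identical (100%), and that of Pramel39 matches them at 98.0%. Pramel20, Gm13040 and Gm13057 have identical windows (100%), and Gm13043 and Pramel31 match at 94.0%, but Gm13043 matches Pramel20 at 75.7%, and Pramel16, listed on the same probe sets, matches Pramel20 at 46.6% and Pramel31 at 44.6%. In the Pramel38-Pramel42-Pramel48 group Pramel38 matches Pramel48 at 86.8% and E330014E10Rik at 36.7%. The end of the E330014E10Rik window, however, repeats the start of the Pramel38 window, so their annotated starts are shifted against each other. The windows of Gm13043 and Pramel20 are shifted as well. A low identity between windows therefore does not show that the copies have unlike promoters. The neighbours Pramel6 and Pramel7, which are also adjacent in gene order, match at 44.3%. Windows of genes on different chromosomes reach similar values, for example Pramel7 and Pramel38 with 43.1% and Pramel13 and Pramel37 with 44.1%. Values this low therefore do not show a likeness between windows. Methylation of these windows was not measured.

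Among the members the 3 lines LiPS-45, LiPS-57 and LiPS-47 were near each other and LiPS-50 stood above them. In LiPS-45 against LiPS-50, 39 of 67 members were called lower and 0 higher (58.2%), against 8.18% of all probe sets called lower and 16.5% called in either direction. In LiPS-57 against LiPS-50, 33 were called lower and 1 higher (50.7%), with 8.16% of all probe sets lower and 15.6% in either direction. In LiPS-47 against LiPS-50, 37 were called lower and 0 higher (55.2%), with 8.48% of all lower and 15.8% in either direction. The median difference of the 67 members was -0.436 for LiPS-45, -0.25 for LiPS-57 and -0.345 for LiPS-47, while that of all tested probe sets was -0.00024, 0.00019 and 0.014 in the same order. Over distinct sets of values, 27, 25 and 27 of 53 were called lower in these 3 comparisons, which share the LiPS-50 arrays. Of the 67 members, 29 were called lower in all 3 comparisons (21 distinct) and 45 in at least 1 (33 distinct). All 3 LiPS-50 arrays lay above the other 9 in 34 members (25 distinct), a pattern shown by 8.81% of all tested probe sets. They lay below the other 9 in 0 members, against 9.54% of all.

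**Figure D1:**
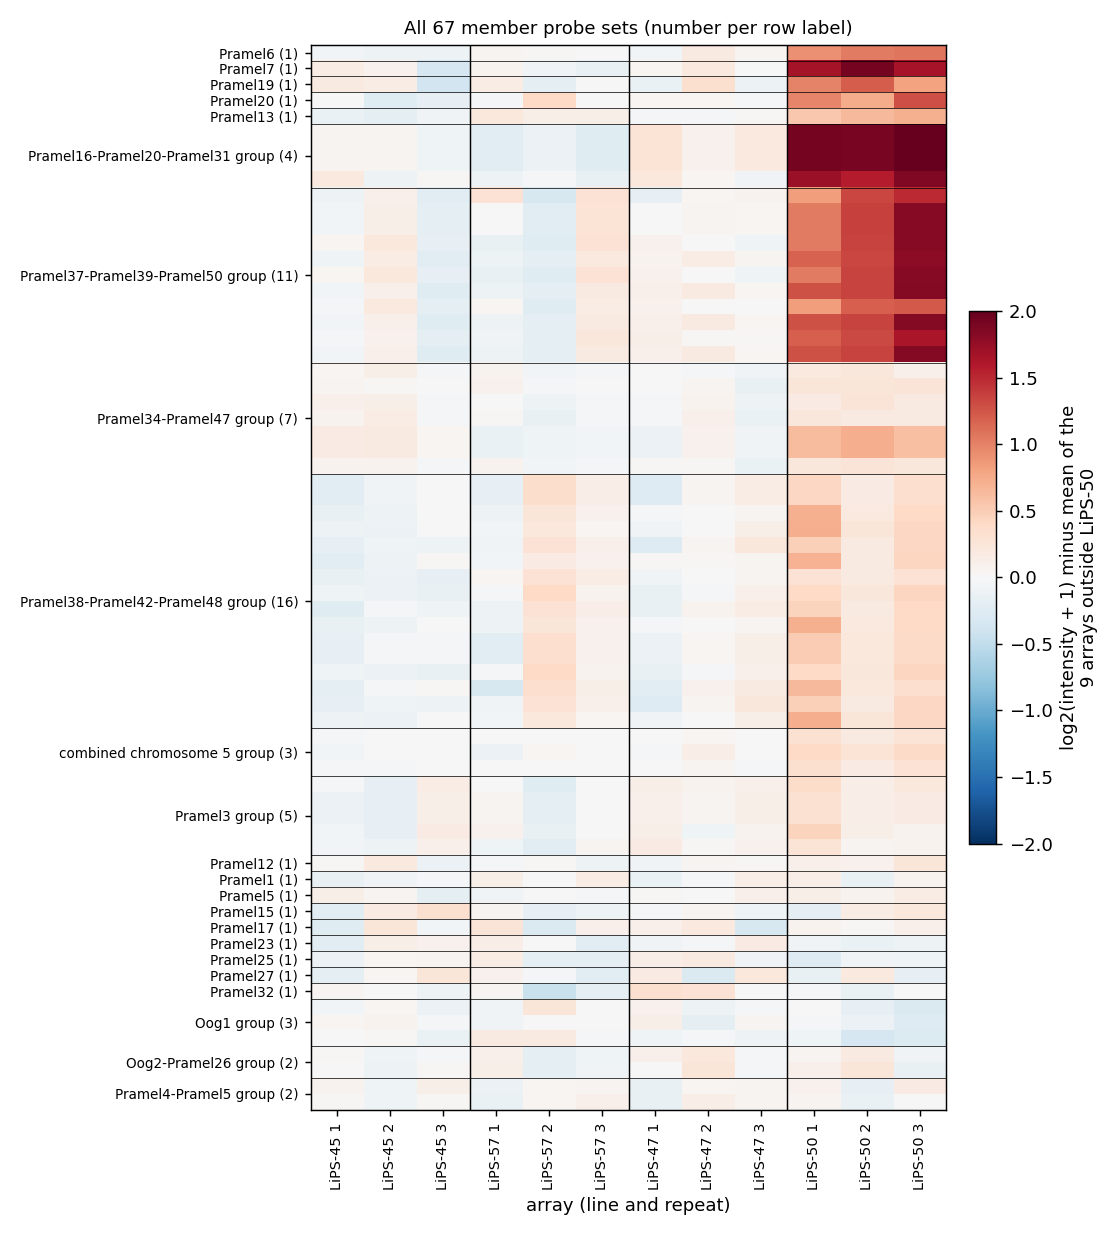
Each row is 1 of the 67 member probe sets and each column 1 of the 12 arrays, and the colour gives log2(intensity + 1) minus the mean of the 9 arrays outside LiPS-50. Genes and groups with a call lower than in LiPS-50 were placed first, so the position of the red block follows from that order. The red block in the 3 LiPS-50 columns covers the upper rows, from Pramel6 to the Pramel37-Pramel39-Pramel50 group, fades over the other chromosome 5 groups and the Pramel3 group, and is not seen in the rows from Pramel12 down.

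Between the other 3 lines 0 members were called. In LiPS-45 against LiPS-57, 0.266% of all probe sets were called by limma, and 9 of 67 members had an unadjusted p under 0.05, against 8.01% of all probe sets. In LiPS-45 against LiPS-47 0.0622% of all were called, and 5 members had such an unadjusted p, against 8.93% of all. In LiPS-57 against LiPS-47 0.159% of all were called, and 7 members had such an unadjusted p, against 6.89% of all. Members with the same values count more than once here. Over the 53 distinct sets of values, 5, 2 and 5 had such an unadjusted p, in the same order of pairs. The lowest adjusted p of a member in these 3 pairs was 0.185 (Pramel13), 0.514 (a probe set of the Pramel34-Pramel47 group) and 0.145 (the Pramel16-Pramel20-Pramel31 group). A p above the threshold does not show that the 3 lines are equal.

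The competence test put LiPS-45 and LiPS-57 against LiPS-47 and LiPS-50, with the line as a random block. It called 0 of 67 members and 0.0% of all 28939 probe sets. An unadjusted p under 0.05 was found for 23 members (16 of 53 distinct sets of values) and for 7.69% of all probe sets. The lowest adjusted p of a member was 0.648. Pramel7, for instance, differed by -0.95 (SE 0.329, adjusted p = 0.648) between competent and other lines, and the Pramel16-Pramel20-Pramel31 group by -1.17 (SE 0.346, adjusted p = 0.648). Both lines without competence differed from each other in these members as described next, and LiPS-47 lay with the competent lines. The fit used 1 within-line correlation (0.183) for all probe sets. Where lines differ by far more than their cultures, as in Pramel7, the SE and unadjusted p from this fit are too small. The count of 23 members is therefore no measure of a difference by competence.

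Pramel6 was measured at 3.81, 3.75 and 3.75 for LiPS-45, at 3.92, 3.89 and 3.85 for LiPS-57 and at 3.80, 4.04 and 3.91 for LiPS-47, against 4.77, 4.90 and 4.92 for LiPS-50. Every LiPS-50 array was above every other array. The difference from LiPS-50 was -1.09 in LiPS-45 (SE 0.0694, adjusted p = 9.7e-07), -0.98 in LiPS-57 (adjusted p = 3e-06) and -0.95 in LiPS-47 (adjusted p = 3.29e-06), which corresponds to folds of 2.14, 1.97 and 1.93 in favour of LiPS-50. On a log2(intensity + 16) scale, which damps dim probe sets, these differences were between -0.62 and -0.55.

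Pramel7, the UHRF1-directed receptor named above, gave 4.13, 4.07 and 3.64 for LiPS-45, 4.05, 3.90 and 3.83 for LiPS-57 and 4.01, 4.17 and 3.99 for LiPS-47, against 5.64, 5.88 and 5.63 for LiPS-50. Here too the groups did not overlap, with a gap of more than 1 log2 unit between the lowest LiPS-50 array and the highest of the others. The line means were 3.95 ± 0.270 for LiPS-45, 3.93 ± 0.113 for LiPS-57, 4.06 ± 0.101 for LiPS-47 and 5.72 ± 0.143 for LiPS-50 (SD, n = 3 each). Pramel7 was 3.42 times lower in LiPS-45 (difference -1.77, SE 0.123, adjusted p = 1.98e-06), 3.47 times in LiPS-57 (adjusted p = 2.18e-06) and 3.16 times in LiPS-47 (adjusted p = 3.41e-06) than in LiPS-50. On the log2(intensity + 16) scale the differences were between -1.16 and -1.10.

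Both genes lie next to each other on chromosome 2 among genes for olfactory receptors, the odorant sensors of the nose. Beyond Pramel7 in gene order lie Olfr1126 and Olfr1124, the nearest genes there with a probe set of their own. Olfr1126 was at 4.07 for LiPS-45, 4.04 for LiPS-57, 4.18 for LiPS-47 and 4.07 for LiPS-50, and Olfr1124 at 3.13, 3.16 and 3.04 in the same 3 lines and 3.24 for LiPS-50. Neither was called against LiPS-50 (adjusted p of 0.255 to 0.975).

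On chromosome 4 the single-gene member Pramel19 read 4.48, 4.45 and 3.90 for LiPS-45, 4.44, 4.11 and 4.30 for LiPS-57 and 4.16, 4.61 and 4.17 for LiPS-47, against 5.28, 5.51 and 5.10 for LiPS-50. The cultures of each line spread more than for Pramel6, but the LiPS-50 arrays stayed above the rest. The differences were -1.02 in LiPS-45 (SE 0.169, adjusted p = 0.00155), -1.01 in LiPS-57 (adjusted p = 0.00171) and -0.98 in LiPS-47 (adjusted p = 0.00172).

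Pramel20 alone read 3.36, 3.11 and 3.20 for LiPS-45, 3.32, 3.75 and 3.35 for LiPS-57 and 3.39, 3.39 and 3.32 for LiPS-47, against 4.34, 4.10 and 4.64 for LiPS-50. The second LiPS-57 culture was the highest of the 9 other arrays and still below the lowest of LiPS-50. The differences were -1.14 in LiPS-45 (SE 0.137, adjusted p = 0.000163), -0.89 in LiPS-57 (adjusted p = 0.00108) and -0.99 in LiPS-47 (adjusted p = 0.000425).

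A further set of 4 probe sets lists Pramel20 together with Pramel16, Pramel31, Gm13040, Gm13043 and Gm13057, and 3 of them carry the same values. Probe set 10510068 read 3.87, 3.87 and 3.73 for LiPS-45, 3.59, 3.70 and 3.58 for LiPS-57 and 4.08, 3.90 and 4.01 for LiPS-47, against 5.73, 5.72 and 5.92 for LiPS-50. This was the largest difference of the family: -1.97 in LiPS-45 (SE 0.0772, adjusted p = 1.34e-08), -2.17 in LiPS-57 (adjusted p = 8.07e-09) and -1.80 in LiPS-47 (adjusted p = 3.49e-08). The corresponding folds were 3.91, 4.50 and 3.47. On the log2(intensity + 16) scale the differences of the 4 probe sets were between -1.37 and -0.98. The other set of values, of probe set 10510112, differed by -1.67, -1.81 and -1.66 from LiPS-50 in the same order of lines, with adjusted p-values of 2.49e-07 to 5.36e-07. Among the 3 lower lines LiPS-57 was lowest in probe set 10510068, at 3.62 ± 0.0669, against 3.99 ± 0.0918 in LiPS-47 (SD, n = 3 each; adjusted p = 0.145).

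Pramel13 was the brighter of the 2 members above the 40th percentile. It read 6.90, 6.84 and 6.95 for LiPS-45, 7.24, 7.14 and 7.14 for LiPS-57 and 6.98, 6.99 and 7.05 for LiPS-47, against 7.57, 7.67 and 7.74 for LiPS-50. The differences of -0.77 in LiPS-45 (SE 0.0635, adjusted p = 8.33e-06), -0.49 in LiPS-57 (adjusted p = 0.000328) and -0.66 in LiPS-47 (adjusted p = 3.24e-05) make folds of 1.70 in LiPS-45 and 1.58 in LiPS-47. LiPS-57 lay between LiPS-50 and the other lines, with no overlap with LiPS-45, but its difference from LiPS-45 did not pass the test (LiPS-45 minus LiPS-57 -0.28, adjusted p = 0.185). The adjacent gene Pramel15 and, on the other side, 1700012P22Rik were not called, with adjusted p-values of 0.635 to 0.905 and 0.761 to 0.964.

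**Figure D2:**
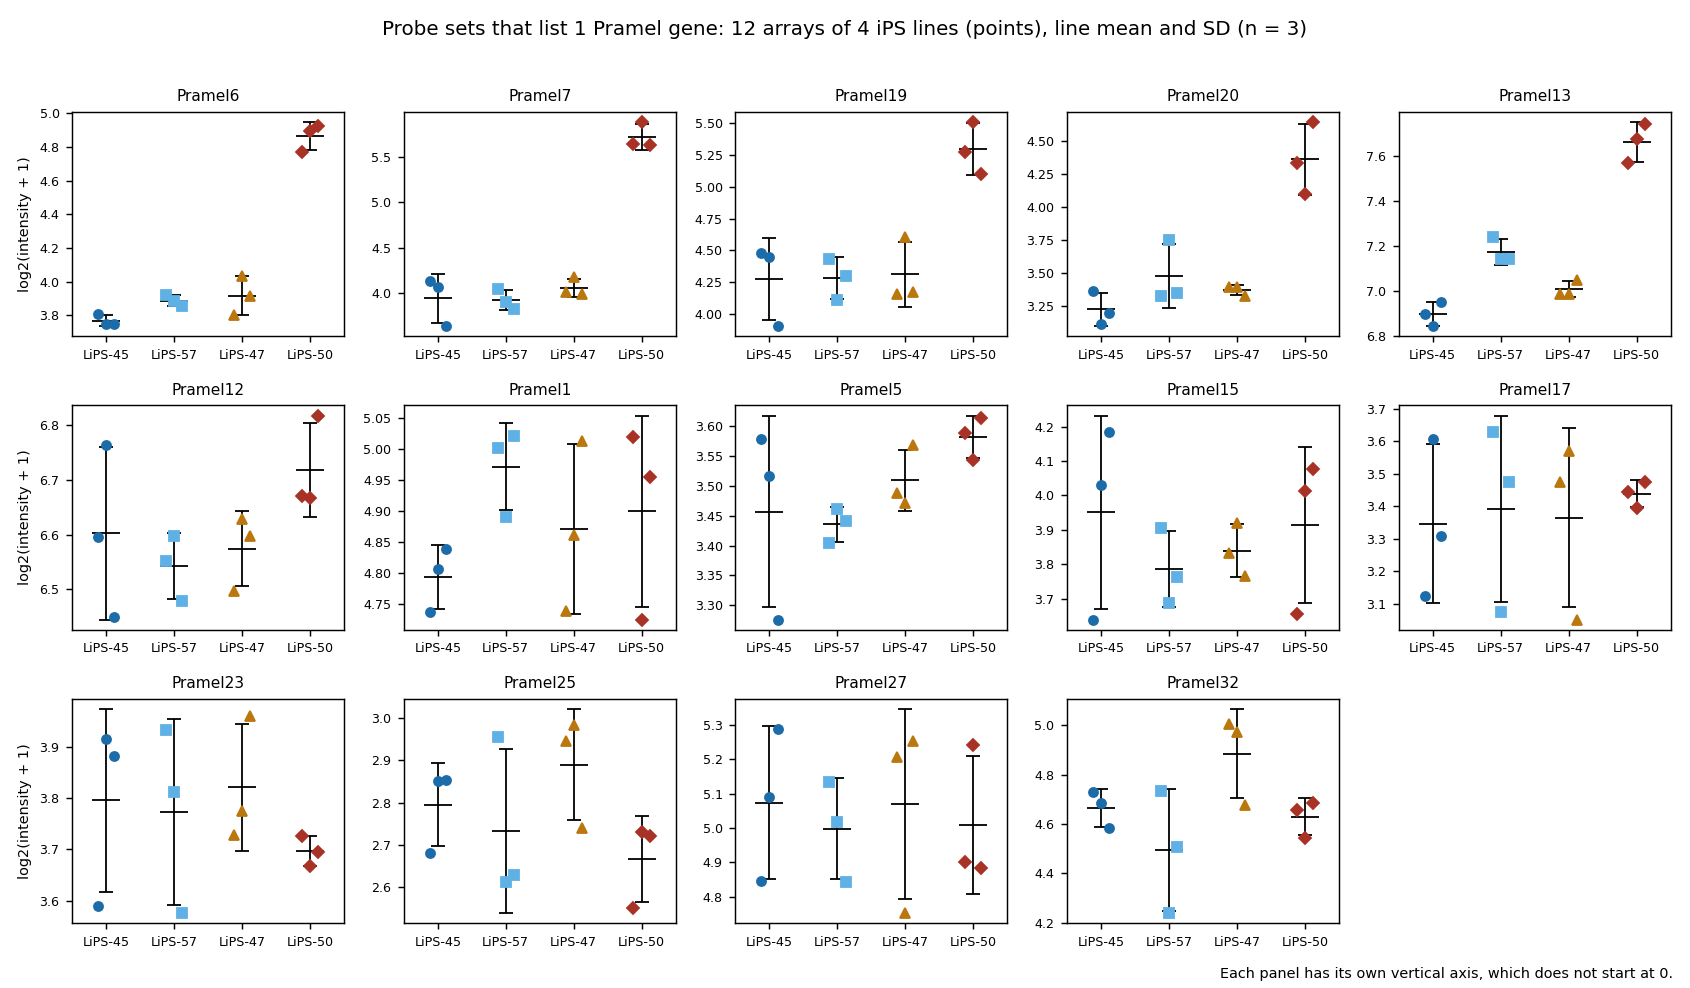
Each panel shows 1 of the 14 probe sets that list a single Pramel gene, with log2(intensity + 1) of the 12 arrays as points by line and the line mean and SD (n = 3) as bars. In the first 5 panels (Pramel6, Pramel7, Pramel19, Pramel20 and Pramel13) all 3 LiPS-50 points lie above the other 9, while in the other 9 panels the LiPS-50 points overlap with those of other lines.

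The rest of the single-gene members, Pramel1, Pramel5, Pramel12, Pramel15, Pramel17, Pramel23, Pramel25, Pramel27 and Pramel32, were called in 0 of the comparisons. Pramel1, known from the testis, is an example at 4.79 ± 0.052 for LiPS-45, 4.97 ± 0.0704 for LiPS-57, 4.87 ± 0.136 for LiPS-47 and 4.90 ± 0.154 for LiPS-50 (SD, n = 3 each). Pramel12, the second bright member, averaged 6.60 ± 0.157 for LiPS-45, 6.54 ± 0.060 for LiPS-57, 6.57 ± 0.0691 for LiPS-47 and 6.72 ± 0.0857 for LiPS-50, and its differences from LiPS-50 of -0.11 to -0.17 had adjusted p-values of 0.2 to 0.412. The 9 genes differed from LiPS-50 by between -0.17 (Pramel12 in LiPS-57) and 0.26 (Pramel32 in LiPS-47, adjusted p = 0.187).

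On chromosome 4, genes listed by probe sets called lower lie among genes listed by probe sets that were not. Which copies of a shared group differed cannot be told. Genes without a window, such as Pramel12, are left out of the order. In the order of their RefSeq windows, Pramel32, Pramel17 and Pramel19 come first, and of these Pramel19 was called. Pramel1 follows, then Gm13043, Gm13040, Gm13057 and Pramel20 of the shared group, then Pramel23, Pramel25, Pramel26 and Pramel27, none of which was called lower. Pramel16 of the shared group follows, then Pramel4, Gm13102, Oog2, Pramel29 and Pramel5, and last Pramel31 of the shared group, Pramel15 and Pramel13.

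On chromosome 5, 11 probe sets list Pramel37, Pramel39, Pramel50 and BC080696, with 7 distinct sets of values. All 11 were called lower in each of the 3 other lines, and in all 11 the LiPS-50 arrays lay above the other 9. Probe set 10530722 read 4.07, 4.27 and 3.96 for LiPS-45, 4.46, 3.85 and 4.45 for LiPS-57 and 4.01, 4.21 and 4.23 for LiPS-47, against 5.01, 5.50 and 5.66 for LiPS-50. Its differences were -1.29 in LiPS-45 (SE 0.182, adjusted p = 0.000526), -1.14 in LiPS-57 (adjusted p = 0.00134) and -1.24 in LiPS-47 (adjusted p = 0.000647). Over the group, differences ran between -1.56 and -1.09 for LiPS-45, -1.53 and -1.10 for LiPS-57 and -1.40 and -1.06 for LiPS-47, with folds of 2.09 to 2.94. The LiPS-50 cultures themselves spread in this group, with the first culture lowest and the third highest in the 7 sets of values, for example 5.53, 5.85 and 6.30 in probe set 10531512.

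The smaller differences of chromosome 5 came from 3 groups of closely related copies. The Pramel34-Pramel47 group, which also lists Gm6367 and AA792892, holds 7 probe sets (6 distinct). The group had 3 called lower in LiPS-45 and 6 each in LiPS-57 and LiPS-47. Its strongest set of values, of probe set 10536029, read 3.66, 3.68 and 3.55 for LiPS-45, 3.38, 3.41 and 3.45 for LiPS-57 and 3.38, 3.58 and 3.43 for LiPS-47, against 4.14, 4.23 and 4.10 for LiPS-50. These differences were -0.53 (SE 0.0687, adjusted p = 0.000292), -0.74 (adjusted p = 2.65e-05) and -0.69 (adjusted p = 4e-05), in the same order of lines. The lowest-numbered one, probe set 10522562, read 3.02, 3.09 and 2.95 for LiPS-45, 3.04, 2.93 and 2.95 for LiPS-57 and 2.98, 2.95 and 2.91 for LiPS-47, against 3.18, 3.21 and 3.08 for LiPS-50. There the lines overlapped, and it was called in LiPS-47 only (difference -0.21, adjusted p = 0.04). In 13 of 19 alternative settings this call was lost, and that of probe set 10531501 in LiPS-47 was lost in 15. At least 1 alternative lost 9 of the 15 calls in this group. The calls kept in every setting were those of probe sets 10536029 and 10536041, which carry the same values.

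The Pramel38-Pramel42-Pramel48 group has 16 probe sets (10 distinct), which also list Gm3286, Gm16513, Gm16367 and E330014E10Rik. In LiPS-45 13 of them were called lower, while LiPS-57 had 3 such calls and LiPS-47 had 8. Probe set 10522554 read 3.52, 3.66 and 3.73 for LiPS-45, 3.57, 4.08 and 3.86 for LiPS-57 and 3.48, 3.79 and 3.89 for LiPS-47, against 4.14, 3.90 and 4.07 for LiPS-50, and was not called (adjusted p of 0.0607 to 0.394). The second LiPS-57 culture reached into the LiPS-50 range there, and it was the highest of its line in each of the 10 sets of values. The 3 LiPS-50 arrays were above all others in 3 of the 16. Median differences were -0.47 for LiPS-45, -0.28 for LiPS-57 and -0.37 for LiPS-47. Of 24 calls in this group, 16 were lost in at least 1 alternative. The 3 calls in LiPS-57 were lost without the first LiPS-50 culture, where their differences were -0.26 or -0.24 (adjusted p of 0.112 to 0.156). A combined group of 3 probe sets lists the genes of both groups, 11 in all, and was called lower in each comparison, with differences of -0.38 to -0.24. Its probe set 10523329 read 3.15, 3.16 and 3.17 in LiPS-45, 3.17 in each LiPS-57 culture and 3.17, 3.21 and 3.16 in LiPS-47, against 3.47, 3.34 and 3.44 in LiPS-50. These values are among the lowest of the family, and 6 of 9 calls of the group were lost in at least 1 alternative.

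**Figure D3:**
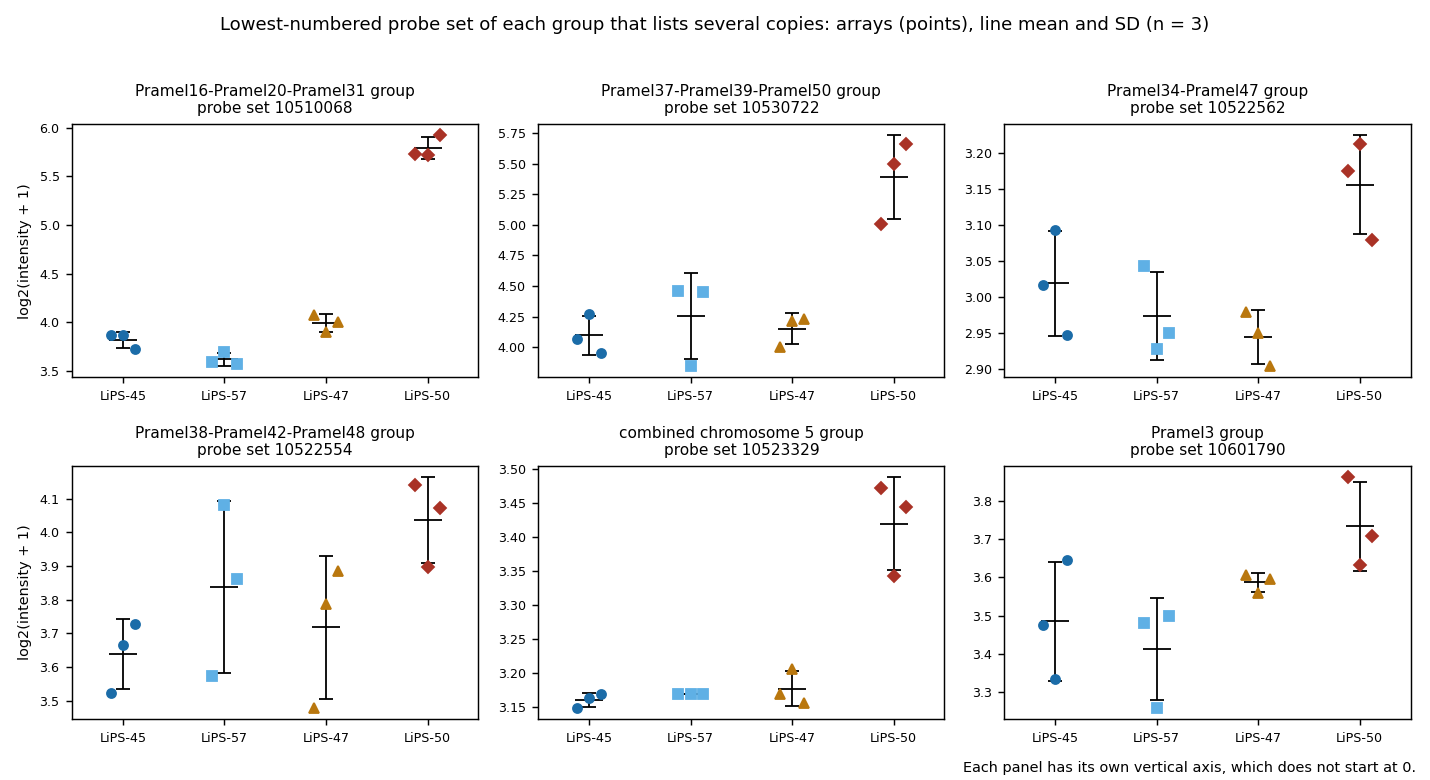
Each panel shows the lowest-numbered probe set of 1 of 6 groups that list several copies, with log2(intensity + 1) of the 12 arrays as points by line and the line mean and SD (n = 3) as bars. The LiPS-50 points are clear of the rest in the Pramel16-Pramel20-Pramel31, Pramel37-Pramel39-Pramel50 and combined chromosome 5 panels, and overlap with other lines in the Pramel34-Pramel47, Pramel38-Pramel42-Pramel48 and Pramel3 panels. The Oog1, Oog2-Pramel26 and Pramel4-Pramel5 groups, in which no probe set was called lower in any line than in LiPS-50, are not shown.

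The X-linked Pramel3 group, with Pramel3, Gm5128, Gm7903, Gm15023 and AV320801, had 5 probe sets, 1 of which was called once. Probe set 10601790 read 3.48, 3.34 and 3.65 for LiPS-45, 3.48, 3.26 and 3.50 for LiPS-57 and 3.61, 3.56 and 3.60 for LiPS-47, against 3.86, 3.63 and 3.71 for LiPS-50. It was lower in LiPS-57 (difference -0.32, SE 0.0923, adjusted p = 0.0343), a call that was lost in 8 of 19 alternatives. Without the first LiPS-50 culture the adjusted p was 0.133 and without the second LiPS-57 culture it was 0.137. The differences in the 5 probe sets ran between -0.26 and -0.15 for LiPS-45, -0.32 and -0.22 for LiPS-57 and -0.17 and -0.043 for LiPS-47. X-linked genes in general were lower in the same direction, with a median difference from LiPS-50 of -0.157 for LiPS-45, -0.148 for LiPS-57 and -0.144 for LiPS-47 over 739 genes, while autosomal genes had medians of -0.00874, -0.00274 and 0.0119. The part of this shift in the result was not tested.

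Members that share symbols with the oogenesins, PRAME relatives known from oocytes, were near LiPS-50 or above it. The Oog1 group of 3 probe sets, with Oog1, Gm2042, Pramel25, Pramel29 and Pramel51, held the 1 member that was called higher in another line than in LiPS-50. Probe set 10518187 read 3.11, 3.12 and 2.96 for LiPS-45, 3.28, 3.28 and 3.06 for LiPS-57 and 3.01, 3.06 and 3.00 for LiPS-47, against 3.02, 2.77 and 2.82 for LiPS-50. Its difference in LiPS-57 was 0.34 (SE 0.0839, adjusted p = 0.0158), with LiPS-57 arrays all above those of LiPS-50. The call was lost in 6 of 19 alternatives, among them without the first LiPS-57 culture (adjusted p = 0.065), without the second (0.0645), without the second LiPS-50 culture (0.0631) and without the third (0.0576). The other 2 probe sets of the group were higher in the 3 lines by 0.10 to 0.21 without passing (adjusted p of 0.193 to 0.543). The Oog2-Pramel26 group, with 2 probe sets, differed by -0.12 to 0.035 and the Pramel4-Pramel5 group, with 2, by -0.053 to 0.052, and neither was called.

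Of the wider PRAME family without a Pramel symbol, 3 genes had a probe set. Oog3 was at 3.34 ± 0.049 for LiPS-45, 3.50 ± 0.161 for LiPS-57, 3.49 ± 0.048 for LiPS-47 and 3.22 ± 0.217 for LiPS-50 (SD, n = 3 each), with adjusted p-values of 0.098 to 0.537 against LiPS-50. Oog4 and Prame were not called either, at adjusted p-values of 0.583 to 0.931 and 0.444 to 0.685.

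**Figure D4:**
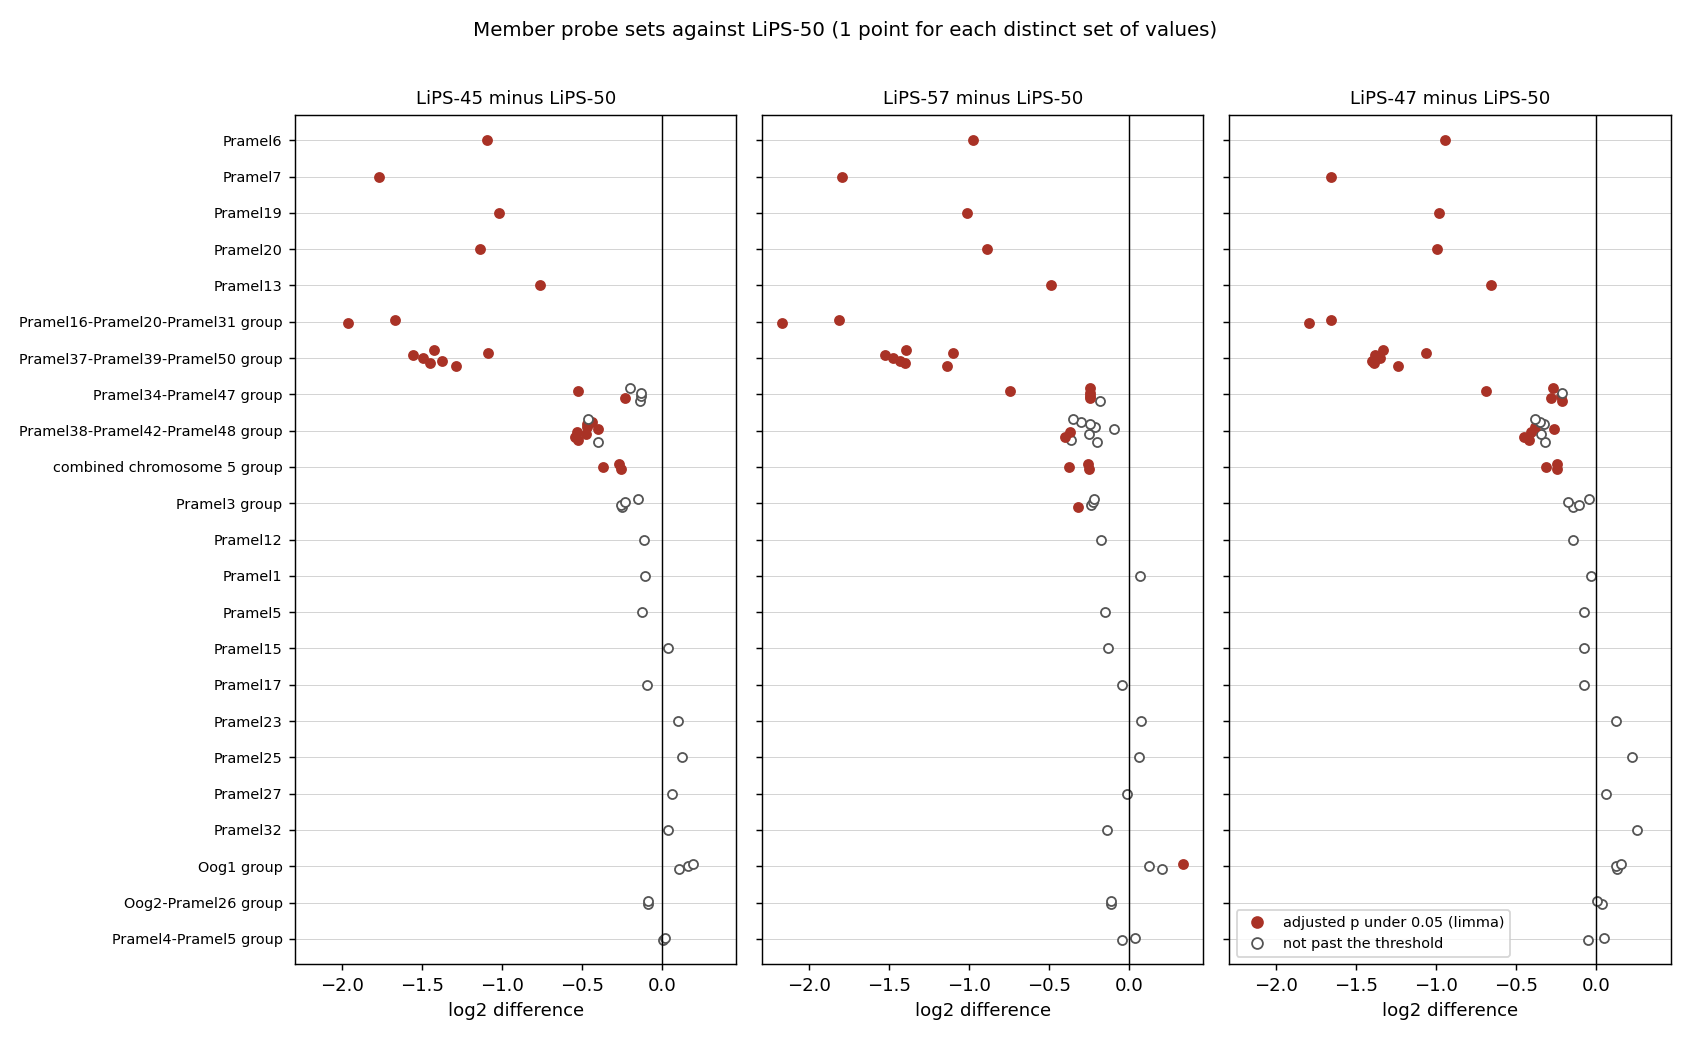
The log2 difference of LiPS-45, LiPS-57 and LiPS-47 from LiPS-50 is shown for each of the 53 distinct sets of values, 1 panel a comparison, with filled points for an adjusted p under 0.05 (limma) and open points otherwise. Filled points lie left of 0, down to -2.17 in LiPS-57, with the exception of 1 point of the Oog1 group in LiPS-57 at 0.34.

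Genes of the processes around Pramel7 were looked at as lists, and not all of them are known to be acted on by it. Of the list on UHRF1 and DNA methylation, 9 of 10 genes were measured, of which 3 were higher and 0 lower in LiPS-45 than in LiPS-50, 2 higher and 1 lower in LiPS-57, and 2 higher and 1 lower in LiPS-47. Their median difference was 0.114 for LiPS-45, 0.0716 for LiPS-57 and 0.113 for LiPS-47, and the background in all tested probe sets was 8.3%, 7.48% and 7.31% called higher. Uhrf1 itself was at 10.51 ± 0.0561 for LiPS-45, 10.47 ± 0.0338 for LiPS-57, 10.50 ± 0.0117 for LiPS-47 and 10.43 ± 0.0172 for LiPS-50 (SD, n = 3 each) and was not called (adjusted p of 0.37 to 0.699). The maintenance methyltransferase Dnmt1 was not called either (adjusted p of 0.203 to 0.474). These are RNA levels, and the protein of Uhrf1 was not measured.

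The de novo methyltransferases did differ. Dnmt3b read 10.95 ± 0.0675 for LiPS-45, 10.87 ± 0.0569 for LiPS-57 and 10.92 ± 0.0606 for LiPS-47, against 10.26 ± 0.058 for LiPS-50 (SD, n = 3 each). It was higher than in LiPS-50 by 0.70 in LiPS-45 (adjusted p = 1.64e-05), 0.61 in LiPS-57 (adjusted p = 6.19e-05) and 0.67 in LiPS-47 (adjusted p = 2.59e-05). Dnmt3a was higher by 0.35 in LiPS-45 (adjusted p = 0.00122), 0.43 in LiPS-57 (adjusted p = 0.000332) and 0.42 in LiPS-47 (adjusted p = 0.000353). Their cofactor Dnmt3l was lower in LiPS-57 and LiPS-47, with differences of -0.30 (adjusted p = 0.00231) and -0.22 (adjusted p = 0.0112), and was not called in LiPS-45 (-0.067, adjusted p = 0.454). Uhrf2, a relative of Uhrf1, was higher in LiPS-45 (0.38, adjusted p = 0.000994) and not called in the other pairs.

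Of the 9 genes of the Cullin 2 ligase list, limma called 0 in LiPS-45 against LiPS-50 (4 with an unadjusted p under 0.05). It called 1 higher in LiPS-57 (Nedd8, the modifier that activates cullins, 0.28, adjusted p = 0.00806) and 1 in LiPS-47 (Klhdc2, a substrate receptor, 0.27, adjusted p = 0.0492). Cul2, the scaffold, differed by 0.19, 0.11 and 0.21 in LiPS-45, LiPS-57 and LiPS-47 (adjusted p of 0.145 to 0.476). Of all tested probe sets, 8.3%, 7.48% and 7.31% were called higher in the same order of lines.

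Of 11 genes of LIF and STAT3 signalling, 2 were lower and 0 higher in LiPS-45 than in LiPS-50, 3 lower and 1 higher in LiPS-57, and 3 lower and 2 higher in LiPS-47, with medians of -0.0582, -0.129 and -0.148. Jak1, a kinase of the LIF receptor, was lower in each: -0.53 (adjusted p = 0.00306), -0.58 (adjusted p = 0.00191) and -0.63 (adjusted p = 0.000897). Stat3 was not called (-0.062, -0.051 and -0.15, adjusted p of 0.196 to 0.726). The ligand Lif was lower in LiPS-45 (-0.39, adjusted p = 0.0321) and LiPS-47 (-0.60, adjusted p = 0.00278) and not called in LiPS-57 (-0.29, adjusted p = 0.107). Il6st, the gp130 subunit of the receptor, was lower in LiPS-57 (-0.30, adjusted p = 0.0181) and LiPS-47 (-0.27, adjusted p = 0.0305), and the kinase Jak2 in LiPS-57 (-0.42, adjusted p = 0.0459). The STAT3 target Pim1, a kinase, was higher in LiPS-47 (0.22, adjusted p = 0.0121). Socs3, a target of STAT3 that limits the pathway, was higher in LiPS-57 (0.24, adjusted p = 0.0365) and LiPS-47 (0.28, adjusted p = 0.0178). In either direction, 16.5%, 15.6% and 15.8% of all tested probe sets were called in LiPS-45, LiPS-57 and LiPS-47 against LiPS-50.

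Of 11 genes of naive pluripotency, the state in which Pramel7 is known to be active, 4 were lower and 0 higher in LiPS-45, 4 lower and 2 higher in LiPS-57, and 6 lower and 0 higher in LiPS-47 than in LiPS-50, with medians of -0.0804, -0.0795 and -0.197. Tcl1, a coactivator of the kinase Akt, was lower, with differences of -0.87 in LiPS-45 (adjusted p = 3.4e-06), -0.56 in LiPS-57 (adjusted p = 0.00014) and -0.98 in LiPS-47 (adjusted p = 1.45e-06). Prdm14, a repressor that keeps de novo methylation low, was lower as well, with differences of -0.69 (adjusted p = 0.00187), -0.61 (adjusted p = 0.00416) and -0.73 (adjusted p = 0.00116), and so was Tbx3, a transcription factor, with -0.62 (adjusted p = 0.000347), -0.62 (adjusted p = 0.000421) and -0.72 (adjusted p = 0.000125). Fbxo15 was the other gene called in each of the 3, with differences of -0.53 (adjusted p = 0.000434), -0.27 (adjusted p = 0.0245) and -0.56 (adjusted p = 0.000305). Nr0b1 (-0.28, adjusted p = 0.0156) and Nanog (-0.20, adjusted p = 0.0344) were called in LiPS-47 only, and Zfp42 and Esrrb in none. The 2 genes called higher in LiPS-57 were Klf2 (0.28, adjusted p = 0.0082) and Dppa3 (0.32, adjusted p = 0.015). The list of the 2-cell-like state, in which cells of a stem cell culture carry transcripts of the 2-cell embryo, had 10 of 22 genes measured, 9 of them below the 40th percentile. Of these, 2 were lower in LiPS-45 (Usp17lb and Usp17lc), 1 in LiPS-57 (Usp17lc) and 0 in LiPS-47, where limma also gave 0 with an unadjusted p under 0.05. The medians were -0.242 for LiPS-45, -0.25 for LiPS-57 and -0.128 for LiPS-47. As background for both lists, 16.5%, 15.6% and 15.8% of all tested probe sets were called in either direction, in the same order of lines.

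**Figure D5:**
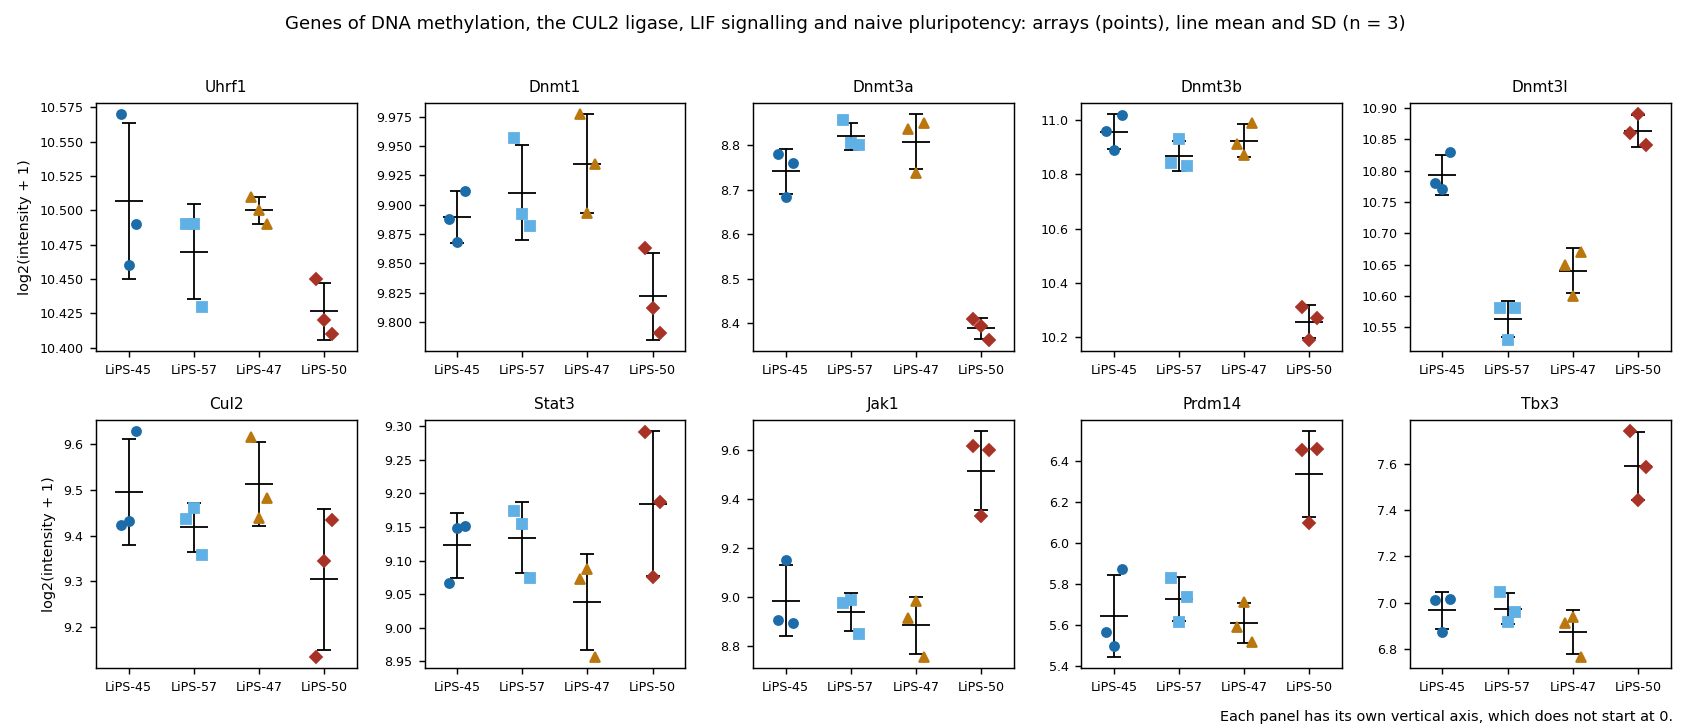
Each panel shows 1 of 10 genes of the lists on DNA methylation, the Cullin 2 ligase, LIF signalling and naive pluripotency, with log2(intensity + 1) of the 12 arrays as points by line and the line mean and SD (n = 3) as bars. LiPS-50 lies below the other lines for Dnmt3a and Dnmt3b and above them for Jak1, Prdm14, Tbx3 and, by less, Dnmt3l, while its points are near or among theirs for Uhrf1, Dnmt1, Cul2 and Stat3.

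Markers of fibroblasts and feeder cells moved in the same direction as the Pramel members. Of 20 markers 19 were measured, and 18 of them were called lower in LiPS-45, LiPS-57 and LiPS-47 than in LiPS-50, the exception in each being Tagln. Their median difference was -0.65 for LiPS-45, -0.67 for LiPS-57 and -0.83 for LiPS-47. The 4 with the smallest p were the receptor Pdgfra (-1.0, -1.11 and -1.25 in that order of lines), and Col3a1, Col6a1 and Lox, with differences between -1.04 and -0.72. The summed intensity of the list lay between 20380 and 23780 for LiPS-45, 20540 and 21870 for LiPS-57, 17560 and 21540 for LiPS-47, and 27690 and 31010 for LiPS-50. No detection call was used, so a level does not show that a marker was present in a line. The lowest mean was that of Lum, at 4.42 for LiPS-45, 4.61 for LiPS-57, 4.37 for LiPS-47 and 5.35 for LiPS-50. Of the 12 pluripotency markers, 6 were higher and 1 lower in LiPS-45, 5 higher and 1 lower in LiPS-57, and 5 higher and 2 lower in LiPS-47 than in LiPS-50. Lin28a, Cdh1, Sall4 and Tdgf1 were higher in each of the 3, with differences between 0.22 and 0.51 (adjusted p of 4.23e-05 to 0.0195), and Dppa5a was lower in each (-0.26, -0.21 and -0.24). Over all tested probe sets, 8.18%, 8.16% and 8.48% were called lower and 8.3%, 7.48% and 7.31% higher in these 3 comparisons. The part of fibroblast or feeder RNA in the Pramel result was not tested.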

How the data were processed

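Per the labels' protocols, total RNA was extracted with Trizol, amplified and labelled with biotin using Affymetrix WT kits. The deposited values are intensities per probe set on a linear scale, and the submitters' processing notes name GCOS 1.4. How probes were summarised, and any normalization, is not given in the sources used here. Across the 12 arrays the log2 quartiles varied little (range 0.112 for the lower one, 0.0981 for the median and 0.089 for the upper one), so the deposited scale was kept. No 2 arrays shared more than 0.746% of values, and each was counted as 1 sample. The deposited table was turned into log2(intensity + 1).

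Of 35556 probe sets, the 6617 with the lowest numbers, which carry no annotation, were left out as likely controls. limma 3.58.1 in R 4.3.3 (lmFit, contrasts.fit and eBayes, two-sided, Benjamini-Hochberg over 28939 probe sets, threshold 0.05) fitted 4 line means to all 12 arrays. Competence was fitted with the line as a random block (consensus correlation 0.183).

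Members, gene lists, tests and alternatives were chosen with earlier results of these data known. The rule for naming was to give every member called in a pair of lines in all arrays, called genes of each list up to 4 by smallest p, neighbours of called single-gene members where they have a probe set of their own, and Uhrf1, Stat3, Dnmt1, Dnmt3a, Dnmt3b and Cul2 always. For shared groups the lowest-numbered probe set is given, with a few others chosen after their values were seen, and the rest by range and count. Gene symbols come from the array annotation, which names no build. Gene order and promoter windows come from RefSeq tables of GRCm38.p6, and identity from global alignment. The alternatives run were a replicate block, 2 other scalings, a larger pseudocount, a filter on dim probe sets, inclusion of the controls, a spread that follows the level, fits of 2 lines only and leaving out each array.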

Additional observations from a re-analysis of the deposited data

How the results depend on the processing

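Under every alternative run, limma called 0 members in the 3 pairs among LiPS-45, LiPS-57 and LiPS-47 and 0 in the competence test, for which a fit of 2 lines only was not run, since it compares 4 lines. Leaving out 1 array at a time gave 33 to 42 calls in LiPS-45 against LiPS-50 (39 with all arrays), 25 to 34 in LiPS-57 (34) and 26 to 38 in LiPS-47 (37), and 0 in each other comparison. The settings that kept all arrays and members gave 36 to 42, 25 to 34 and 30 to 38 in the same order, and fits of only the 2 lines compared gave 42, 28 and 27. Removing every dim probe set, below the 40th percentile of means, left 2 members in the test, of which 1, Pramel13, was called in each of the 3 comparisons with LiPS-50. Adding current RefSeq symbols left the family at 67 members. Of 110 calls of a member in a comparison with LiPS-50, 77 were kept in each setting in which the member was tested, 33 were lost in at least 1 and 0 reversed. The calls of Pramel6, Pramel7, Pramel13, Pramel19, Pramel20, the Pramel16-Pramel20-Pramel31 group and the Pramel37-Pramel39-Pramel50 group were all among the 77. Leaving out the first LiPS-50 array lost 25 of the 110 and leaving out the third lost 21. With log2(intensity + 16) 19 were lost, and differences shrank, for example to between -1.16 and -1.10 for Pramel7 and to between -0.55 and -0.45 for Pramel20.

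No pairing of the cultures by replicate number was visible, although so few arrays cannot exclude one. Deviations from the line means of same-numbered cultures correlated between -0.1691 and 0.1214 over 18 pairs (median 0.01167), and those of other pairs between -0.1787 and 0.1986. With the replicate number as a block, LiPS-45 had 42 calls against LiPS-50, LiPS-57 had 30 and LiPS-47 had 35, with 0 elsewhere. Because 65 of 67 members were dim, their low values may lie near background, and shared probe sets do not tell copies apart.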
